A study of Mus musculus with 21 samples.

Results

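The mouse gene table behind these data holds 23827 rows, and 1211 of them carry a symbol that ends in Rik and only noncoding RefSeq accessions (NR_). Rik symbols are provisional names that RIKEN gave to mouse complementary DNA clones of unknown function. The 292 rows described here are those of the 1211 that reached a mean of at least 1 RPKM (reads scaled to gene length and to the reads of the library) in the 3 total RNA samples of forebrain or the 3 of kidney. Of them, 173 reached it in both organs, 71 in forebrain alone and 48 in kidney alone, and 158 of the 919 that did not had no read in any sample. Total RNA levels therefore chose the rows, and they are given as a description only. Just inside the minimum stood C130036L24Rik and 1700108F19Rik at 1.01 RPKM each, and just outside it 2610206C17Rik at 0.9999 and 1700102H20Rik at 0.9967.

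Most long noncoding RNAs are transcribed, capped, spliced and polyadenylated like messenger RNAs, and many stay in the nucleus, where ribosomes do not reach them. Others enter the cytoplasm, and some that were first filed as noncoding hold short open reading frames that are translated into microproteins. Translating ribosome affinity purification (TRAP) pulls down a tagged ribosomal protein and the RNA bound to it, so a row can be high in total RNA and yet nearly absent from the ribosome-bound fraction. Some noncoding transcripts are known mainly as hosts that are cut up to give microRNAs or small nucleolar RNAs.

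The study sequenced 21 libraries from mouse embryos at embryonic day 14.5, in 7 groups of 3. All embryos carried 1 copy of Gt(ROSA)26Sor-mCherry-Rpl10a, in which the CAGGS promoter drives mCherry-tagged Rpl10a once Cre has removed a stop cassette; the allele came from 1 targeted embryonic stem cell clone. In Sox2Cre+/-;Gt(ROSA)26Sor-mCherry-Rpl10a+/- embryos, where Sox2Cre recombines in the epiblast and so in all cells of the embryo proper, forebrain and kidney each gave total RNA, the transcriptome, and the RNA bound to ribosomes, the translatome. Cdh5CreERT2+/-;Gt(ROSA)26Sor-mCherry-Rpl10a+/- embryos, in which tamoxifen activates Cre in endothelial cells (EC), gave the brain EC and kidney EC translatomes. Emx1Cre+/-;Gt(ROSA)26Sor-mCherry-Rpl10a+/- embryos gave the translatome of the Emx1 lineage, the neural cells of the dorsal telencephalon. Each tissue lysate came from 1 or 2 embryos by the study's methods, so the p-values measure the spread between such lysates. Total and ribosome-bound libraries of a number came from the same tissue by the study's sample list. The main fit does not pair them, and a fit with the replicate number as a block is given beside it. The EC and Emx1 libraries each filled a sequencing lane of their own by the study's sample list, so lane and cell type cannot be told apart in comparisons with whole organs.

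Libraries held 21760652 to 79231692 counted reads. The labelled populations matched their markers: 8 endothelial genes summed to 153 to 177 RPKM in forebrain ribosome-bound RNA and 2991 to 3144 in brain EC, and to 338 to 363 in kidney and 1915 to 2237 in kidney EC. The 6 dorsal telencephalon genes of the marker list summed to 543 to 563 RPKM in whole forebrain and 1124 to 1201 in the Emx1 lineage, against 227 to 246 and 56.1 to 60.2 for 6 ventral genes. Brain EC still held 727 to 890 RPKM over 6 neural genes, of 2175 to 2208 in whole forebrain ribosome-bound RNA. Nes went the other way, from a mean of 68.6 RPKM in whole forebrain to 373 in brain EC. Each of the other neural genes was lower in brain EC, such as Tubb3 (1273 to 290) and Stmn2 (519 to 68.2). The 6 genes of the red blood cell list, whose 2 alpha-globin genes were listed at 0, summed to 307 to 541 RPKM in forebrain total RNA and 34.3 to 57.5 in its ribosome-bound RNA, and to 424 to 501 and 14.1 to 42.1 in kidney. The part that red blood cells take in the total RNA differences below was not tested. The libraries were made without strand, so reads of overlapping genes on opposite strands cannot be told apart; 123 of the 276 members placed on a GENCODE gene shared exon sequence with another gene, 105 of these with a coding gene.

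Later annotation moved some of these rows out of the noncoding class. In the RefSeq table used here 271 of the 292 were still long noncoding RNAs, 12 were protein-coding and 9 were transcribed pseudogenes, and 56 had a new symbol. For 10 of the 292 the match was by synonym only. Among them C130030K03Rik took the coding type of Grik2, though GENCODE calls the row a processed pseudogene. It is counted as coding here. GENCODE called 26 coding, and 30 were coding in either table. The frame that GENCODE gives lay inside the span of the row's own transcripts for 20 of the 26, outside it for 4 and partly outside for 2. Frames of 4 coding members that were called higher in ribosome-bound RNA of both organs are printed here, picked because they are short. Longer frames were left out, such as those of Rnf227 (190 codons) and Inafm2 (152 codons), which also rose in both organs. The sequences are GENCODE vM21 coding frames on GRCm38, with start and stop codons in capitals. They are Mtln (row 1500011K16Rik, chr2:127792297-127792467, minus strand, 56 codons), Smim27 (2010003O02Rik, chr4:40269675-40270142, plus strand, 49 codons, spliced), 2610001J05Rik (chr6:13870532-13870711, minus strand, 59 codons) and 0610012G03Rik (chr16:31948161-31948448, minus strand, 95 codons).
Mtln: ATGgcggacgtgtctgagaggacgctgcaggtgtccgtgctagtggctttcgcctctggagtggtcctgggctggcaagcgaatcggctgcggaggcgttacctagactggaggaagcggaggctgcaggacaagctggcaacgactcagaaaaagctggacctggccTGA
Smim27: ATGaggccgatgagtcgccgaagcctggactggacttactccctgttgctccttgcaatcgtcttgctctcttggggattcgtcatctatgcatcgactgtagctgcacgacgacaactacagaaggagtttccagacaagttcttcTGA
2610001J05Rik: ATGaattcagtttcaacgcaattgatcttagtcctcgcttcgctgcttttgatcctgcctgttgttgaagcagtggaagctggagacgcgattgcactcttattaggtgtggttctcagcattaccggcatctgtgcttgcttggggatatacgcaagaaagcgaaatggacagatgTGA
0610012G03Rik: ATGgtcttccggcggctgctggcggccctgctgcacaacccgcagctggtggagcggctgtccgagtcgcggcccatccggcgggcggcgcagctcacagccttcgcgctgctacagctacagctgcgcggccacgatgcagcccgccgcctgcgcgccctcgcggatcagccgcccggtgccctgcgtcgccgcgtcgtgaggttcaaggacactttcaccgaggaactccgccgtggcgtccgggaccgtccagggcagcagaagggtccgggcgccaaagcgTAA

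Other members are hosts of small RNAs. In GENCODE 12 spanned a microRNA on their own strand and 11 a small nucleolar or Cajal body RNA. Mir100hg was not placed on a GENCODE gene and is not counted among the 12. Mature microRNAs from RefSeq (GRCm38.p6) are printed for 3 hosts that were low on ribosomes in both organs, with the seed, bases 2 to 8, in capitals. They come from 2610203C20Rik, now Mir100hg (miR-100-5p at chr9:41531437-41531458 and miR-125b-5p at chr9:41581940-41581961, plus strand), E130102H24Rik (miR-101a-3p at chr4:101346957-101346977, minus strand) and A230057D06Rik (miR-344-3p at chr7:61877782-61877804 and miR-344c-3p at chr7:61837323-61837345, minus strand). The last pair shares the seed GAUCUAG. The mature microRNAs themselves were not measured.
miR-100-5p: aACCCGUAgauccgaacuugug
miR-125b-5p: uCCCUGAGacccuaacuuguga
miR-101a-3p: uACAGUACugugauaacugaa
miR-344-3p: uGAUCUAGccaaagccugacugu
miR-344c-3p: uGAUCUAGucaaagccugacagu

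In total RNA, 169 members had the higher mean in forebrain and 123 in kidney; 61 were over 4-fold higher in forebrain, 22 over 4-fold higher in kidney and 161 within 2-fold. The highest in forebrain total RNA was 2610203C20Rik (Mir100hg) at 147, 154 and 158 RPKM, followed by 2610017I09Rik (Pantr1, beside the neural factor gene Pou3f3) and A930011O12Rik (Mir124a-1hg, a host of the neural microRNA miR-124). In kidney it was 1110038B12Rik at 76.1, 81.3 and 85.1 RPKM, followed by 2410006H16Rik, a host of small nucleolar RNAs, and 1810058I24Rik. The members took 0.351 to 0.359% of counted reads in forebrain total RNA and 0.227 to 0.231% in kidney total RNA. They took 0.311 to 0.326% and 0.241 to 0.245% in the ribosome-bound RNA of the same organs, and the share in both EC groups was lower, at 0.162 to 0.180% in brain and 0.160 to 0.176% in kidney.

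On ribosomes the members split in 2 directions of unequal depth. In forebrain 290 could be tested, and edgeR called 63 (21.7%) higher and 71 (24.5%) lower in ribosome-bound than in total RNA at an adjusted p under 0.001, where 18.6% and 18.5% of all rows tested were called higher and lower. Among all rows with at least 1 RPKM these shares were 25.4% and 24.1%. In kidney 38 of 289 were higher and 49 lower, against 14.9% and 15.8% of all rows and 20.5% and 21.3% of those with at least 1 RPKM. With the replicate number as a block, which pairs the fractions of the same tissue, the counts became 89 higher and 83 lower in forebrain and 86 higher and 76 lower in kidney, holding all members called without it. Without forebrain ribosome-bound replicate 1 the share higher in forebrain was 13.79%. Within the lane that holds both fractions (3 libraries against 1), 9.66% were higher in forebrain, and 6.69% higher and 8.10% lower in kidney. The increases had a median of 1.01 on the log2 scale in forebrain and 0.96 in kidney among members called. Of these, 32 of 63 in forebrain and 16 of 38 in kidney passed 2-fold. Among all rows called higher with at least 1 RPKM, 752 of 3564 and 344 of 2869 did. The decreases had medians of -1.98 and -2.06, and 35 members in forebrain and 27 in kidney were called lower by over 4-fold, where 0 rose by over 4-fold and passed the test in edgeR. Increases of that size were rare in all rows with at least 1 RPKM. Of 14008 such rows in forebrain 269 fell and 5 rose by over 4-fold, and of 14009 in kidney 183 fell and 9 rose. At an unadjusted p under 0.05 the members over 4-fold higher were 0 in forebrain and 1 in kidney, and DESeq2 also called 0 and 1. Since total RNA of an organ both chose members and enters its comparison, these counts are a description; of the 221 members chosen by kidney, 219 could be tested in forebrain, where 47 were higher and 55 lower, and of the 244 chosen by forebrain, 241 could be tested in kidney, where 34 were higher and 39 lower.

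**Figure D1:**
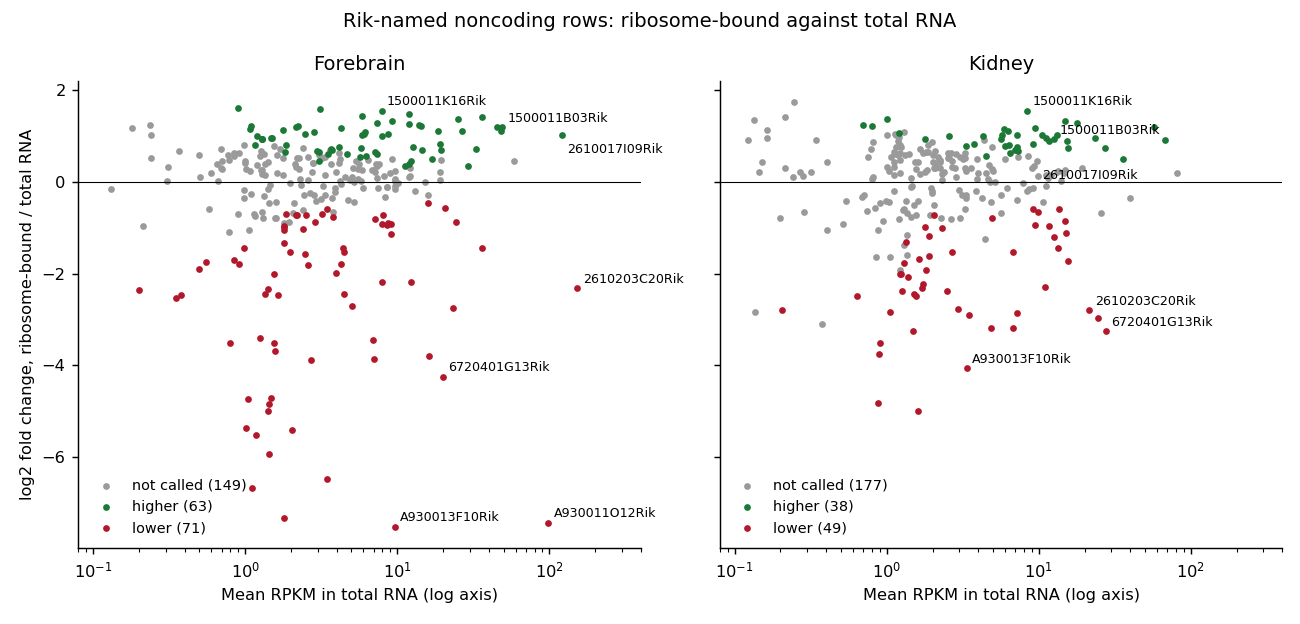
Log2 fold change of ribosome-bound against total RNA (vertical axis) against mean RPKM in total RNA (horizontal log axis), for forebrain (left, 283 members) and kidney (right, 264 members) with at least 0.1 RPKM in total RNA of that organ. Each point is 1 member, green called higher, red called lower and grey not called; the decreases reach -7.52 in forebrain while no increase called passes 1.61.

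Other classes of rows above the same minimum differed in how they divided. Of 204 other noncoding rows tested in forebrain, 13.7% were higher and 32.4% lower, 33 of them by over 4-fold. Of 368 Rik-named mRNA rows, 33.4% were higher and 21.2% lower, 4 by over 4-fold, and of 12984 other mRNA rows 25.8% and 23.9%, 135 by over 4-fold. Of 162 small RNA rows 0.62% were higher and 39.5% lower, 62 of them by over 4-fold. In kidney the shares called higher stood in the same order, from 27.5% of Rik-named mRNA rows to 0% of small RNA rows. The rows of a class were chosen by the same total RNA minimum, so these shares are set side by side with no test.

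**Figure D2:**
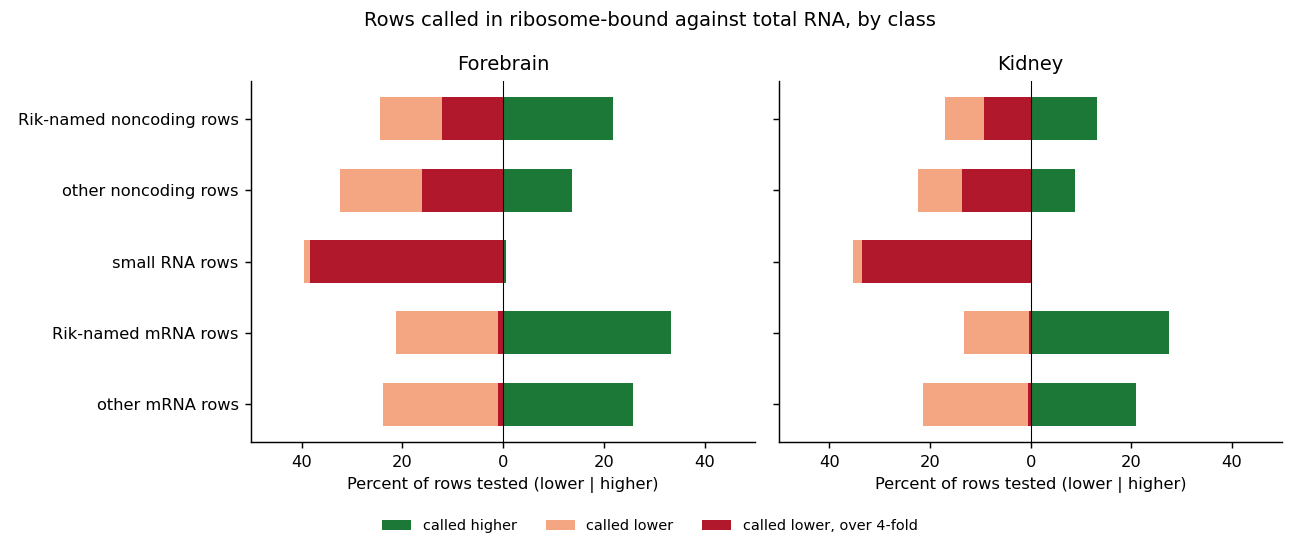
Percent of rows tested that were called higher (right of 0) or lower (left of 0) in ribosome-bound against total RNA, for the Rik-named noncoding rows and 4 other classes of at least 1 RPKM, in forebrain and kidney. The dark part of each lower bar is over 4-fold: 35 of 290 Rik-named noncoding rows in forebrain, against 4 of 368 Rik-named mRNA rows.

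Members that rose in both organs included 3 that are now named as genes of small proteins. Row 1500011K16Rik is Mtln, which encodes the mitochondrial microprotein mitoregulin, and had 7.99, 8.16 and 7.54 RPKM in forebrain total RNA and 24.4, 22.7 and 21.3 in ribosome-bound RNA. The fractions did not overlap, and the log2 fold change was 1.56 ± 0.09 (SE, n = 3 and 3, adjusted p = 3.3e-09, edgeR). In kidney it had 7.78, 8.29 and 8.99 RPKM in total and 24.6, 25.6 and 23.3 in ribosome-bound RNA, again without overlap and again with a log2 change of 1.56 ± 0.09 (adjusted p = 3.9e-07). Row 2310009A05Rik is Pigbos1, which encodes a microprotein of the outer mitochondrial membrane. Its values were 10.9, 12.1 and 13.0 RPKM in forebrain total RNA and 34.9, 31.8 and 32.7 on ribosomes, and 15.3, 15.4 and 13.6 against 36.4, 39.5 and 35.2 in kidney. Every ribosome-bound value was above every total RNA value, with log2 changes of 1.49 ± 0.10 (adjusted p = 1.3e-08) and 1.32 ± 0.10 (adjusted p = 1.2e-06). Smim27 (2010003O02Rik), a small membrane protein gene, rose from 4.26, 6.59 and 6.72 to 15.8, 16.7 and 14.7 RPKM in forebrain and from 9.79, 10.7 and 11.2 to 21.0, 22.8 and 20.5 in kidney, with log2 changes of 1.44 ± 0.17 (adjusted p = 4.9e-06) and 1.02 ± 0.13 (adjusted p = 5.8e-05). It shared exon sequence with Ndufb6 and Topors. Not all such genes rose: Mrln (2310015B20Rik), the gene of the muscle microprotein myoregulin, was not called in forebrain (1.03, adjusted p = 0.080) or kidney (0.87, adjusted p = 0.017), and Smim41 (6030408B16Rik) was not called in forebrain (-0.15) but rose by 1.16 in kidney.

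A further 4 members that are coding in RefSeq rose in both organs. Row 1810058I24Rik went from 32.9, 39.1 and 35.6 to 93.9, 94.4 and 92.0 RPKM in forebrain, and from 55.0, 59.8 and 56.6 to 134, 135 and 124 in kidney. The log2 changes were 1.41 ± 0.06 (adjusted p = 4.4e-10) and 1.19 ± 0.05 (adjusted p = 3.7e-08), with no overlap in either organ. For 0610012G03Rik and 2610001J05Rik, whose frames are printed above, the log2 changes were 1.38 and 1.22 in forebrain and 0.97 and 1.28 in kidney, all called. Inafm2 (5430417L22Rik) rose less, by 0.35 in forebrain and 0.82 in kidney. Of the 30 members coding in either later table, 16 rose and 5 fell in forebrain, and 10 rose and 4 fell in kidney, with medians of 0.69 and 0.74 over the 30. Of the 260 tested that are noncoding in both tables, 47 rose and 66 fell in forebrain (median 0.07), and of 259 in kidney 28 rose and 45 fell (median 0.15). All 12 RefSeq-coding members were tested in each organ, and 8 of them rose in each. Among all rows with at least 1 RPKM, 25.4% rose and 24.1% fell in forebrain, and 20.5% and 21.3% in kidney. The 5 members counted as later coding that fell in forebrain were 5730480H06Rik (-3.50), 4930412O13Rik (-2.36), D930016D06Rik (now Thoc2l, -2.18), D930048N14Rik (-1.89) and C130030K03Rik (-1.79), named after their values were seen. The last was matched to Grik2 by synonym only and is a processed pseudogene in GENCODE. For 5730480H06Rik the GENCODE frame lay outside the span of the row's own transcripts. The same held for 2900008C10Rik (Bcor, 1.01) and 1500011B03Rik (1.20), which are counted among those that rose in forebrain.

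**Figure D3:**
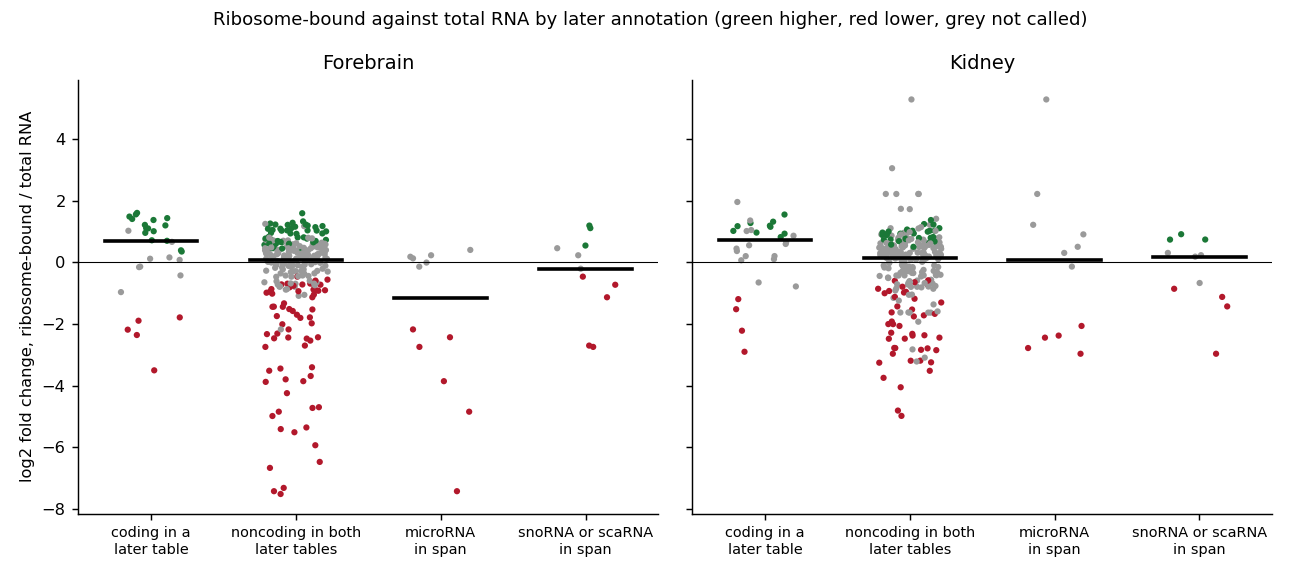
Log2 fold change of ribosome-bound against total RNA for members coding in a later table, noncoding in both later tables, spanning a microRNA, or spanning a small nucleolar or Cajal body RNA (the last 2 also appear under the first 2), in forebrain and kidney. Points are members, green called higher, red lower, grey not called, and black lines are medians: 0.69 and 0.74 for later coding members, 0.07 and 0.15 for the noncoding ones.

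The member set's marker, 1500011B03Rik, which GENCODE places at chr5:114808196-114813976 on the minus strand (GRCm38) was among the rows that rose. GENCODE calls the gene coding, but the frame lies in another transcript outside this span, and RefSeq lists a long noncoding RNA. Forebrain total RNA held 45.4, 52.3 and 48.1 RPKM and ribosome-bound RNA 116, 105 and 108. The lowest ribosome-bound value was above the highest total RNA value, and the log2 change was 1.20 ± 0.06 (adjusted p = 7.8e-10). In kidney the row was lower in both fractions, at 12.1, 11.9 and 13.7 in total and 24.1, 21.9 and 21.5 RPKM in ribosome-bound RNA, with no overlap and a log2 change of 0.93 ± 0.09 (adjusted p = 7.7e-06). Rnf227 (A030009H04Rik), a RING finger gene that shares this pattern of fractions, rose by 1.10 ± 0.08 and 1.18 ± 0.08 on the log2 scale.

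Rows that stayed noncoding also rose. Pantr1 (2610017I09Rik, chr1:42648200-42694825, minus strand) is still a long noncoding RNA in both tables and had 119, 129 and 114 RPKM in forebrain total RNA and 249.6, 235 and 242 in ribosome-bound RNA. It was thus among the most abundant members on ribosomes, without overlap between fractions and with a log2 change of 1.03 ± 0.05 (adjusted p = 1.6e-09). In kidney it had 8.89, 9.51 and 10.7 against 12.4, 13.1 and 14.6 RPKM; the samples did not overlap but the log2 change of 0.47 missed the threshold (adjusted p = 0.0085). Row 2410006H16Rik, which spans Snord49a, Snord49b and Snord65, had 45.0, 46.2 and 44.6 RPKM in forebrain total and 116, 97.4 and 91.9 in ribosome-bound RNA, and 68.5, 70.3 and 62.6 against 139.6, 128 and 113 in kidney. Both organs were called, with log2 changes of 1.20 and 0.92. Epb41l4aos (2410004N09Rik) rose by 1.11 ± 0.09 in forebrain and 0.74 ± 0.10 in kidney. The most abundant member of kidney total RNA, 1110038B12Rik, moved little, from 48.6, 66.1 and 59.9 to 72.6, 80.3 and 83.2 RPKM in forebrain (0.46, not called) and from 76.1, 81.3 and 85.1 to 89.4, 101 and 85.8 in kidney. Other members with large increases in forebrain were 2310034G01Rik (1.61), 2900009J06Rik (1.60) and 2010204K13Rik (1.33), and in kidney 2810403D21Rik (1.38), 2810032G03Rik (1.25) and 1700123M08Rik (1.23).

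The losses were larger than the gains. Row A930011O12Rik, now Mir124a-1hg (chr14:64588051-64593961, plus strand), had 106, 94.1 and 94.8 RPKM in forebrain total RNA and 0.532, 0.737 and 0.418 in ribosome-bound RNA. Forebrain total RNA alone chose it, and its log2 fold change there was -7.43 ± 0.12. Row A930013F10Rik went from 11.6, 7.88 and 9.31 to 0.0541, 0.0675 and 0.0267 RPKM in forebrain, and from 3.82, 3.40 and 2.83 to 0.337, 0.0698 and 0.190 in kidney. No samples overlapped, and the log2 changes were -7.52 ± 0.24 (adjusted p = 2.9e-11) and -4.05 ± 0.32 (adjusted p = 2.4e-06). Firre (6720401G13Rik), an X-linked RNA known to act in nuclear organisation, had 22.6, 18.7 and 18.3 RPKM in forebrain total RNA and 0.944, 1.02 and 1.01 in ribosome-bound RNA. In kidney it had 29.2, 27.3 and 26.4 against 2.80, 2.55 and 2.87. All ribosome-bound values were far below the total RNA values, with log2 changes of -4.25 ± 0.08 (adjusted p = 1.3e-13) and -3.26 ± 0.06 (adjusted p = 1.8e-09).

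Mir100hg (2610203C20Rik), the most abundant member of forebrain total RNA, fell to 24.5, 26.0 and 40.4 RPKM on ribosomes there, and from 23.8, 20.5 and 20.3 to 3.01, 3.99 and 2.29 in kidney. The log2 changes were -2.31 ± 0.14 (adjusted p = 8.4e-09) and -2.79 ± 0.16 (adjusted p = 2.7e-07), so that even after the loss it stayed among the higher members in forebrain ribosome-bound RNA. Srrm4os (2410137F16Rik), antisense to the neural splicing factor gene Srrm4, went from 4.30, 2.73 and 3.30 to 0.0332, 0.0298 and 0.0492 RPKM in forebrain. Atcayos (2310050B05Rik), antisense to Atcay, had 1.78, 1.35 and 2.24 RPKM in total RNA, 70 reads over the group, and no read in the 3 ribosome-bound libraries, at least 16.5-fold lower against a floor of 3 counts over the group. Both were chosen by forebrain alone. Row 4930579G18Rik fell in both organs, from 8.04, 6.01 and 6.77 to 0.726, 0.567 and 0.537 RPKM and from 7.35, 5.97 and 7.12 to 1.06, 0.581 and 0.566, with log2 changes of -3.45 and -3.19. Further members named by the size of their losses were C030023E24Rik (-6.67), 1700007J10Rik (-5.94), 1700048M11Rik (-5.52) and D030047H15Rik (-5.41) in forebrain, all 4 chosen by forebrain total RNA alone, and 4930404I05Rik (-4.98), D930015M05Rik (-4.81) and F420014N23Rik (-3.24) in kidney.

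**Figure D4:**
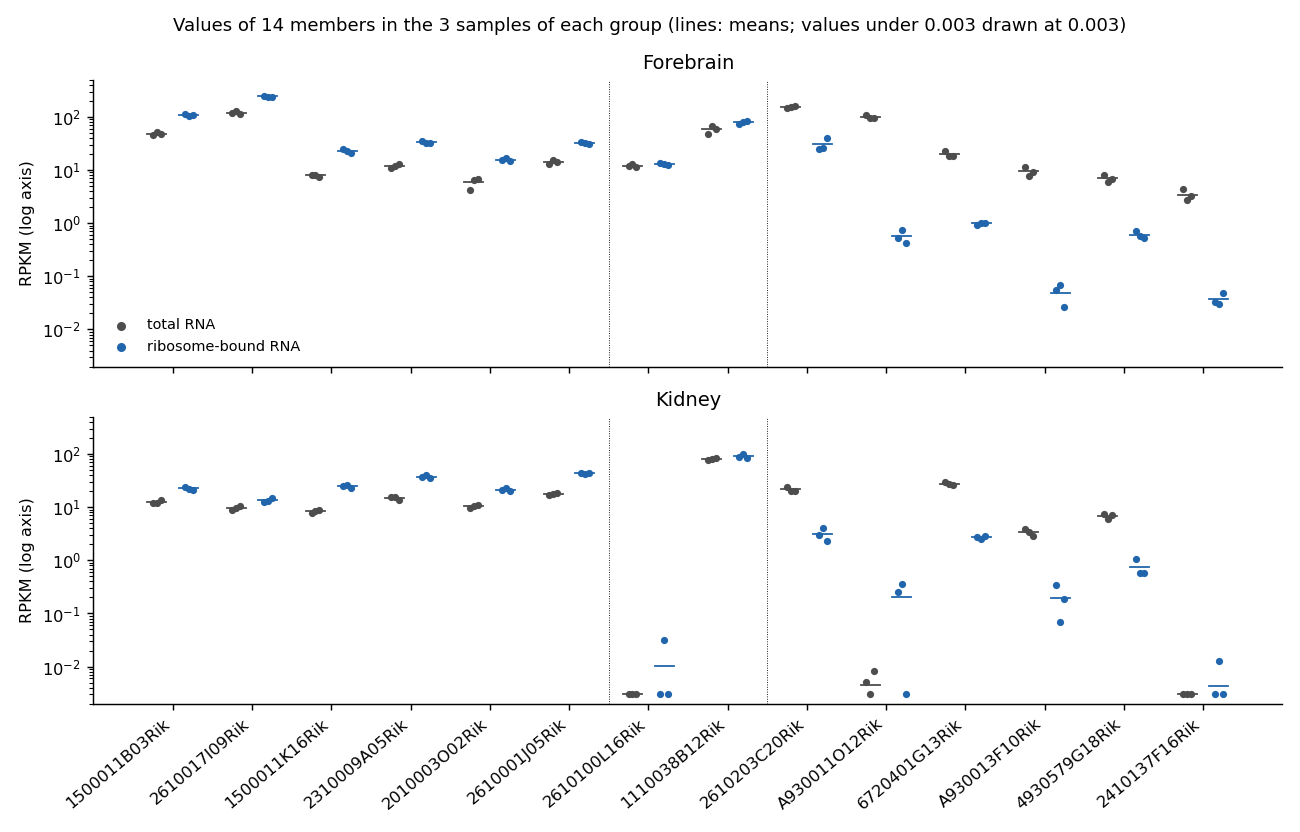
RPKM on a log axis of 14 members in total RNA (grey) and ribosome-bound RNA (blue) of forebrain (top) and kidney (bottom); points are the 3 samples, lines their means, and values under 0.003 are drawn at 0.003. The 6 members at the left are higher in ribosome-bound RNA in forebrain, the 2 in the middle were not called there, and the 6 at the right fell there, from 106, 94.1 and 94.8 to under 1 RPKM for A930011O12Rik.

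More hosts of small RNAs were called lower than higher, and the kinds of host were not tested against each other. In all, 21 members spanned a small RNA of either kind, and Snhg20 is among those that belong to both. Of all rows tested, 18.6% rose and 18.5% fell in forebrain, and 14.9% and 15.8% in kidney. Among rows with at least 1 RPKM, the minimum by which the hosts were chosen, 25.4% rose and 24.1% fell in forebrain. In kidney these were 20.5% and 21.3%. Of the 12 members that span a microRNA, 6 fell in forebrain and 5 in kidney, each by over 4-fold, and none rose by edgeR; at an unadjusted p under 0.05, 1 was higher in forebrain and 3 in kidney, and DESeq2 called 0 and 1. Besides Mir124a-1hg, those that fell were A330023F24Rik, which spans Mir29b-2 and Mir29c (-4.85 in forebrain and -2.78 in kidney), A230057D06Rik (-3.86 and -2.06), Snhg20 (2810008D09Rik, -2.74 and -2.97), A330076H08Rik (-2.43 and -2.44) and E130102H24Rik (-2.18 and -2.38). Mir124-2hg (2610100L16Rik), another host of miR-124, was not called, with 12.1, 12.7 and 11.6 RPKM in total and 13.5, 13.1 and 12.5 in ribosome-bound forebrain RNA (0.13 ± 0.07, adjusted p = 0.16). The row C130071C03Rik, which spans Mir9-2, had 4.63, 5.29 and 5.58 against 4.53, 5.46 and 5.25 RPKM, with overlapping samples. Of the 11 that span a small nucleolar or Cajal body RNA, 3 rose and 5 fell in forebrain, and 3 rose and 4 fell in kidney. For comparison, of 8 well-known nuclear noncoding RNAs outside the Rik names, Malat1 (-5.05), Neat1 (-4.27), Meg3 (-6.47), Rian, Mirg, Miat and Kcnq1ot1 fell in forebrain and Rmst was not called; 6 of the 8 fell in kidney, where Miat and Rmst were not called. Of 11 other small nucleolar RNA hosts, 4 rose (Snhg1, Snhg6, Snhg8 and Snhg12) and 2 fell (Snhg7 and Snhg11) in forebrain, and 1 rose (Snhg1) and 3 fell (Snhg4, Snhg7 and Gas5) in kidney.

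Gene structure was set beside the fold change as a description. Across 274 members placed on GENCODE, the forebrain log2 change had Pearson's r of -0.24 and Spearman's rho of -0.25 with exon number, -0.13 and -0.23 with log10 transcript length and -0.06 and -0.11 with the longest open frame, across genes that share the same 6 libraries. In kidney the same values were -0.22 and -0.20 with exon number, -0.02 and -0.09 with length and -0.05 and -0.09 with the longest open frame. Among all rows with at least 1 RPKM, 25.4% rose and 24.1% fell in forebrain, and 20.5% and 21.3% in kidney. Of the 37 single-exon members, 14 (37.8%) rose and 5 (13.5%) fell in forebrain. In kidney 7 (18.9%) of these rose and 4 (10.8%) fell. The 122 members tested that share exon sequence with another gene gave 25 higher and 32 lower in forebrain, and the 152 with no shared exon 34 and 31.

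The libraries of the organs were separate. Joint counts over all rows were not made, so those given here describe the members only. Of the members tested in both, 28 were called higher in both organs, 44 lower in both, 142 in neither and 0 in opposite directions by edgeR. At an unadjusted p under 0.05, 5 members went in opposite directions, and DESeq2 called 1. A further 34 were called higher and 25 lower in forebrain alone, and 10 and 4 in kidney alone. These counts depend on the fit. With the replicate block, kidney had 86 higher and 76 lower, against 89 and 83 in forebrain. Over 287 members the log2 changes in forebrain and kidney had Pearson's r of 0.70 and Spearman's rho of 0.80, as a description across genes. Of the 35 members lower by over 4-fold in forebrain, 33 could be tested in kidney and 26 were called lower there; 23 passed 4-fold in both organs.

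The test of the organ difference itself, an interaction of organ and fraction in 1 edgeR fit, called 13 of 292 members (4.45%) relatively lower on forebrain ribosomes and 0 relatively higher. Over all rows tested 4.12% were lower and 2.35% higher, and among rows with at least 1 RPKM 5.86% and 3.33%. At an unadjusted p under 0.05, 25 members were higher, and DESeq2 called 4 higher and 18 lower; with the replicate block the counts were 8 and 24. Without forebrain ribosome-bound replicate 1 or replicate 2, 2.74% were lower. The difference was -3.48 ± 0.60 for A930013F10Rik (adjusted p = 0.00057), -2.90 ± 0.46 for E330033B04Rik (adjusted p = 0.00032), -1.80 ± 0.25 for A230057D06Rik (adjusted p = 0.00012) and -1.01 ± 0.11 for Firre (adjusted p = 8.9e-06), each of which fell in both organs. For E330033B04Rik forebrain went from 0.958, 0.991 and 1.07 to 0.0228, 0.0098 and 0.0386 RPKM, and kidney from 1.62, 1.46 and 1.57 to 0.207, 0.183 and 0.454. Oip5os1 (1700020I14Rik), also known as Cyrano, went from 39.8, 33.8 and 34.4 to 12.8, 12.7 and 13.9 RPKM in forebrain and from 41.1, 40.8 and 38.0 to 29.2, 29.3 and 36.0 in kidney. Its decrease of -1.44 in forebrain was called, that of -0.35 in kidney was not, and the difference of -1.11 ± 0.12 was. The fitted difference of A930011O12Rik, -12.78, rests on a row with 0 to 1 read in the kidney total RNA libraries and 0.254, 0.351 and 0 RPKM on kidney ribosomes, where the kidney change was not called (adjusted p = 0.0039). Kidney ribosome-bound replicates 1 and 2 ran in the same lane as forebrain total RNA replicates 2 and 3, and replicate 3 did not; the lane's part in these values was not tested.

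More members were called lower than higher in endothelial cells against whole organs, although many were not called. In brain EC against the whole forebrain translatome, 21 of 290 members (7.24%) were higher and 125 (43.1%) lower, with a median log2 difference of -0.72, where 24.8% and 21.4% of all rows tested were higher and lower (30.6% and 27.7% of rows with at least 1 RPKM). In kidney EC against the whole kidney translatome, 12 of 288 (4.17%) were higher and 75 (26.0%) lower, with a median of -0.74, where 16.7% and 15.0% of all rows were (21.3% and 19.3%). Scaling by total counts instead of TMM lowered the median of all rows by 0.30 in brain EC and 0.37 in kidney EC on the log2 scale, and then gave 15 higher and 148 lower in brain EC and 120 lower in kidney EC. The share lower in kidney EC was 17.01% without kidney EC replicate 1 and 41.10% in 1 fit of all 21 samples. In whole organs, fewer cells of a type and less RNA per cell cannot be told apart. The 2 EC comparisons share no library. In both, 8 members were higher (38.1% of the 21 and 66.7% of the 12) and 45 lower (36.0% of the 125 and 60.0% of the 75). Another 4 were higher in brain EC and lower in kidney EC, and 1 the reverse. Joint counts over all rows were not made, so these describe the members only.

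Row 2610203C22Rik (chr1:9560832-9631092, minus strand) had 0.494, 0.383 and 0.216 RPKM in the whole forebrain translatome and 4.68, 3.94 and 5.75 in brain EC, and 2.26, 2.69 and 2.58 in kidney against 10.9, 9.24 and 12.8 in kidney EC. EC samples were above all whole-organ samples in both organs, with log2 differences of 3.95 ± 0.24 (adjusted p = 9.2e-09) and 2.49 ± 0.16 (adjusted p = 1.9e-07). It shares exon sequence with Adhfe1. Row A330009N23Rik had 2.11, 1.13 and 1.88 RPKM in the forebrain translatome and 11.9, 9.80 and 9.58 in brain EC, and 2.44, 1.95 and 2.64 against 6.20, 7.01 and 6.49 in kidney; the groups did not overlap (2.96 and 1.74). The most abundant EC member was 2810025M15Rik, with 59.2, 50.8 and 50.8 RPKM in the forebrain translatome, 119.9, 119 and 115 in brain EC, 47.3, 53.6 and 52.5 in the kidney translatome and 134, 146 and 124 in kidney EC (1.42 and 1.75). It shares exon sequence with Rasal2. D930048N14Rik was higher in brain EC by 3.54 and in kidney EC by 1.41, C430049B03Rik by 1.90 and 0.79 and A630072M18Rik by 1.87 and 1.01. Norad (2900097C17Rik), a cytoplasmic RNA that binds Pumilio proteins, had 14.5, 17.5 and 18.0 RPKM in the kidney translatome and 39.0, 34.0 and 61.8 in kidney EC (1.79), and was higher by 0.96 in brain EC. Row 4930556M19Rik was higher in brain EC (1.90) and 0.10 in kidney EC, where it was not called. Crnde (4933436C20Rik), next to the homeobox gene Irx5, had 0.329, 0.784 and 0.594 RPKM in the kidney translatome and 3.77, 2.01 and 2.93 in kidney EC (2.72), with no overlap.

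Pantr1 was among the members lowest in EC relative to the whole organ. It had 32.7, 29.2 and 34.6 RPKM in brain EC against 249.6, 235 and 242 in the whole forebrain translatome (-2.62), and 1.49, 1.29 and 1.74 in kidney EC against 12.4, 13.1 and 14.6 (-2.78). All EC samples were below all whole-organ samples. The marker 1500011B03Rik had 16.0, 17.6 and 15.3 RPKM in brain EC (-2.54) and 11.0, 12.8 and 11.6 in kidney EC (-0.60). Among members with a mean of at least 1 RPKM in either group, the largest decreases in brain EC were those of 2700054A10Rik (-3.45), Lhx1os (1500016L03Rik, -3.05), A330048O09Rik (-2.98), Cdr1os (C230004F18Rik, -2.83), D930028M14Rik (-2.74) and Mhrt (D830015G02Rik, -2.65). In kidney EC they were those of Lhx1os (-3.10), Smim41 (-3.09), E030013I19Rik (-2.80), Pantr1, Mrln (-2.72) and 2810032G03Rik (-2.71). A330048O09Rik (-3.29) and 2700054A10Rik (-2.80), below that minimum in both kidney groups, were lower in kidney EC as well. Smim41 had 13.6, 12.7 and 13.1 RPKM in the kidney translatome and 1.13, 1.12 and 1.35 in kidney EC, and Lhx1os, next to the nephron gene Lhx1, had 16.8, 18.9 and 18.0 against 1.81, 1.66 and 1.40. In both cases all EC values were below all whole kidney values. Of 6 nephron genes, Nphs1 alone went the other way, from a mean of 3.31 RPKM in the kidney translatome to 7.97 in kidney EC. The sum of the 6 was lower in EC, at 335 to 360 RPKM in whole kidney and 64.9 to 81.3 in kidney EC. In contrast, Mtln had 21.7, 22.4 and 19.1 RPKM in brain EC, close to the whole forebrain values, and was not called in either EC comparison.

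Brain EC and kidney EC could also be compared with each other. Of 292 members, 71 (24.3%) were higher in brain EC and 25 (8.56%) in kidney EC, where 20.1% and 16.9% of all rows tested were (24.7% and 21.7% of rows with at least 1 RPKM). In 1 fit of all 21 samples 39.73% were higher in brain EC. Several members of brain EC had no read in kidney EC: Mir124-2hg had 2.97, 3.29 and 2.87 RPKM in brain EC, at least 165-fold higher against the floor of 3 counts over the group, 3110039M20Rik had 3.70, 3.47 and 3.71 (at least 123-fold) and C130071C03Rik 1.11, 1.25 and 1.07 (at least 61.9-fold). These 3 were lower in brain EC than in whole forebrain, by -1.81, -2.40 and -1.86, beside neural genes such as Tubb3 that brain EC still held. Their share that comes from neural RNA in the EC samples was not tested. Also higher were 1500009C09Rik, with 14.3, 11.2 and 11.6 RPKM in brain EC and 1 read in a single kidney EC library, which like those 3 was lower in brain EC than in whole forebrain (-1.91), and 2610035F20Rik, near the start of Zic2, with 6.86, 6.32 and 7.03 RPKM, which did not differ from whole forebrain beyond the threshold (0.18, adjusted p = 0.15). In the other direction Hoxaas3 (2700086A05Rik), antisense within the Hoxa cluster, had 1.65, 2.08 and 2.41 RPKM in kidney EC and no read in brain EC or any forebrain library, at least 93.7-fold higher in kidney EC. Row 3110099E03Rik had 0.061, 0.163 and 0.0988 RPKM in brain EC and 5.56, 6.61 and 5.86 in kidney EC (-5.77 ± 0.23, adjusted p = 6.6e-09), and it was also above the whole kidney translatome there (1.16). Others higher in kidney EC were E030013I19Rik (-4.30), Smim41 (-4.14), 0610005C13Rik (-2.92), 2810429I04Rik (-2.09) and B130024G19Rik (-1.80), beside Nr2f2.

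The Emx1 lineage differed from whole forebrain in fewer members. Of 290 tested, 24 (8.28%) were higher and 24 lower, where 9.20% and 12.8% of all rows were (12.2% and 15.2% of rows with at least 1 RPKM). In 1 fit of all 21 samples 5.14% were higher. Row 2610035D17Rik (chr11:113043895-113201838, minus strand) had 15.6, 11.1 and 12.1 RPKM in the whole forebrain translatome and 33.4, 31.5 and 31.3 in the Emx1 lineage, without overlap (1.36 ± 0.09, adjusted p = 2e-08). C920006O11Rik (2.81), 2810429I04Rik (1.35), A230056P14Rik (1.27), 1500004A13Rik (1.09) and 9630028B13Rik (1.05) were also higher. Pantr1, at 310.0, 306 and 309 RPKM, was the most abundant member of the Emx1 lineage and differed from whole forebrain by 0.40. Among those lower, D930028M14Rik went from 15.3, 15.8 and 18.2 to 2.82, 2.44 and 2.74 RPKM (-2.57) and Sfta3-ps (E030019B13Rik) from 3.91, 3.75 and 4.81 to 0.699, 0.909 and 0.825 (-2.33). All Emx1 samples were below all whole forebrain samples, as were the ventral telencephalon genes. Mhrt (-2.28), C130021I20Rik (-2.09), 2700069I18Rik (-1.56) and B230216N24Rik (-1.37) were lower as well. Mir124-2hg, which did not pass the test between fractions, had 8.73, 8.78 and 8.90 RPKM in the Emx1 lineage (-0.51).

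**Figure D5:**
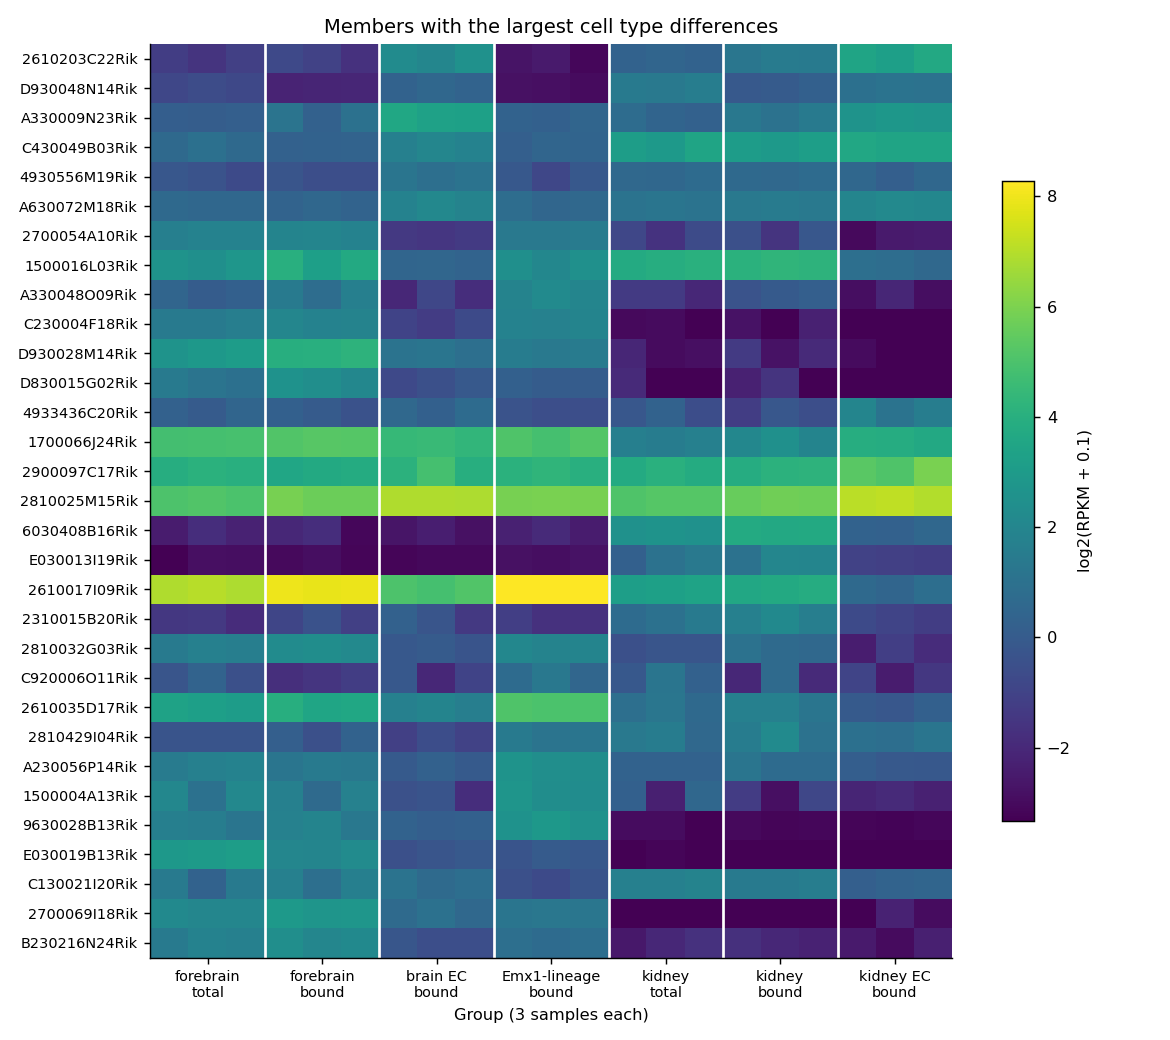
Values as log2(RPKM + 0.1) (colour scale) of 31 members (vertical axis) chosen by the size of their differences between cell types, in the 3 samples of each of the 7 groups (horizontal axis, white lines between groups). 2610203C22Rik, A330009N23Rik and 2810025M15Rik are brightest in the EC groups, and 2610017I09Rik in the Emx1 lineage and whole forebrain.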

How the data were processed

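Total RNA and ribosome-bound RNA of 7 groups of 3 samples were sequenced from TruSeq v2 libraries, which do not keep strand. The authors mapped reads to GRCm38 (mm10) with RUM and deposited, for each gene of the UCSC refGene table, a read count and an RPKM value (reads per kilobase of gene, scaled to library size) computed with the rpkmforgenes program. Counts were tested here with edgeR 4.0.16 in R 4.3.3 (TMM, quasi-likelihood test, group as the only term unless stated), over every row with at least 1 count in the samples fitted. Benjamini-Hochberg adjustment ran over all rows tested, and a row was called at an adjusted p under 0.001, the study's threshold. The SE of a log2 change was derived from its F statistic. The deposited RPKM values are printed as levels and were not tested. Python 3.11.15, pandas 2.3.3, numpy 2.4.6 and matplotlib 3.10.9 were used for the rest, and the edgeR step was tested on simulated data.

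Members were matched to RefSeq and GENCODE vM21 tables by symbol, accession and synonym. Named members were 1500011B03Rik, the most abundant in each organ, those with the largest changes in each comparison among called rows whose RPKM did not overlap between groups, and the members beside the RPKM minimum. Members that lists of later coding genes or small RNA hosts add, and those singled out in the closing section, were chosen after their values were seen. The members and lists were chosen with earlier results of these data known. Depth limits rows with few reads, and floors cover counting error only.

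Alternatives were DESeq2 1.42.0, 2 other scalings, a minimum of 10 counts in 3 samples, a replicate block, 1 fit of all 21 samples, an adjusted p under 0.05, other member sets, the lane that holds both fractions, and leaving out each library. By the study's sample list, total and ribosome-bound samples with the same number came from the same tissue, and their deviations from group means correlated over 12595 rows (r of 0.52 to 0.68 in forebrain and 0.63 to 0.66 in kidney). The numbers of brain EC and kidney EC also went together (0.16 to 0.34).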

Additional observations from a re-analysis of the deposited data

Results flagged for a closer look

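The organ difference in the ribosome-bound to total RNA ratio, forebrain minus kidney on the log2 scale, passed its interaction test in edgeR for 13 members, with the largest sizes for A930011O12Rik (-12.78), A930013F10Rik (-3.48), E330033B04Rik (-2.90) and A230057D06Rik (-1.80). The first of these rests on 0 to 1 read in the kidney total RNA libraries.

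A set of 5 members was called in opposite directions in the EC comparisons of the 2 organs. The difference between the organs was not tested, and all 3 EC samples lay on the stated side of the 3 whole-organ samples in each case. Row 1700108F19Rik had 0.126, 0.113 and 0.0746 RPKM in the forebrain translatome and 0.743, 0.606 and 0.742 in brain EC (2.95), but 2.45, 2.00 and 1.49 in the kidney translatome and 0.363, 0.176 and 0.336 in kidney EC (-2.36). Row 1700001L05Rik had 0.226, 0.409 and 0.404 against 0.618, 0.760 and 0.641 RPKM in brain (1.27), and 2.79, 4.74 and 4.69 against 0.721, 0.595 and 1.28 in kidney (-1.87). Foxd2os (9130206I24Rik), beside the forkhead gene Foxd2, had 0.571, 0.626 and 0.574 against 1.12, 1.36 and 1.12 RPKM in brain (1.31), and 11.9, 10.0 and 10.5 against 3.46, 3.91 and 3.86 in kidney (-1.18). Row 5430417L22Rik, now Inafm2, differed least, with 13.9, 13.5 and 14.7 against 14.8, 16.0 and 15.8 RPKM in brain (0.43) and 15.0, 16.3 and 17.0 against 8.84, 8.95 and 8.35 in kidney (-0.53). Scaling by total counts lowered the median of all rows in brain EC by 0.30, so its brain difference rests in part on the scaling. Fam219aos (1700066J24Rik), antisense to Fam219a, went the other way, with 34.9, 38.2 and 36.8 against 21.6, 23.3 and 20.0 RPKM in brain (-0.47) and 4.05, 5.63 and 3.65 against 15.0, 14.4 and 12.7 in kidney (2.01). It shares exon sequence with Fam219a, whose reads cannot be told apart from its own in these libraries.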

How the results depend on the processing

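The values here are percents of members called, with the value under the settings of the report in brackets. With DESeq2 the organ difference had 1.61% higher (0%) and 7.26% lower (4.45%). With the replicate block, which pairs fractions of the same tissue, kidney had 29.76% higher (13.15%) and 26.30% lower (16.96%) on ribosomes and the organ difference 2.74% and 8.22%; the block moved no other share by over 1.5 times and changed the call of none of the 84 named results. For cell types against whole organs the numbers did not go together in every pair (r of 0.126, 0.054 and -0.086 for brain EC and whole forebrain), so the samples share only a number. Within the lane that holds both fractions, forebrain had 9.66% higher (21.72%) and kidney 6.69% and 8.10%, with 1 total RNA or 1 ribosome-bound library on one side. In 1 fit of all 21 samples, kidney EC had 41.10% lower (26.04%), the Emx1 lineage 5.14% higher (8.28%) and brain EC 39.73% higher than kidney EC (24.32%); total counts gave 41.67% lower in kidney EC. At an adjusted p under 0.05 the shares were 37.24% higher in forebrain, 31.83% and 26.64% higher and lower in kidney, 15.86% higher in brain EC (7.24%), 7.64% and 52.78% higher and lower in kidney EC (4.17% higher), 20.69% and 17.93% in the Emx1 lineage (8.28% each), 44.52% and 17.12% in brain EC against kidney EC (8.56% lower), and 3.08% and 11.30% for the organ difference. Among members of at least 5 RPKM they were 34.23% higher in forebrain, 27.68% higher in kidney, 39.64% lower in kidney EC, 15.32% and 12.61% in the Emx1 lineage and 8.93% lower for the organ difference. Leaving out 1 library gave 13.79 to 19.66% higher and 21.03 to 23.79% lower in forebrain, the lowest without ribosome-bound replicate 1, and 11.42 to 12.15% and 13.54 to 14.53% in kidney. It gave 5.54 to 7.24% and 32.87 to 44.14% in brain EC, 4.17 to 4.88% and 17.01 to 23.34% in kidney EC (the lowest without kidney EC replicate 1), 6.55 to 8.62% and 6.21 to 7.27% in the Emx1 lineage, 17.81 to 21.92% and 6.85 to 9.25% between EC groups, and 0 to 0% and 2.74 to 3.77% for the organ difference, the lowest without forebrain ribosome-bound replicate 1 or 2. Of 1064 alternative values of the named results, 0 reversed, 1015 kept their call and 49 lost it. These results were picked as the largest called changes, which makes reversal unlikely from the start, so the counts are a description only. A count minimum, relative log expression factors and members with no shared exon moved no share by over 1.5 times.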

Other observations

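Further small nucleolar RNA hosts among the members, chosen after their values were seen, moved in both directions on ribosomes. Snhg18 (0610007N19Rik) had 5.80, 5.80 and 5.49 RPKM in forebrain total RNA and 8.23, 8.10 and 8.16 in ribosome-bound RNA (log2 change 0.55), and 14.1, 14.8 and 17.5 against 27.1, 26.7 and 23.6 in kidney (0.74), with no overlap. In kidney EC it had 3.66, 3.42 and 3.95 RPKM, below all 3 whole kidney samples (-2.45). Snhg17 (9430008C03Rik) had 9.21, 8.50 and 9.48 RPKM in forebrain total RNA and 4.75, 3.89 and 3.47 on ribosomes, and 15.5, 15.4 and 14.4 against 8.07, 7.27 and 5.49 in kidney, again with no overlap.

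A pair of members had a replicate 2 that stood below the others in both fractions, where replicates of a number share their tissue. Row 1500004A13Rik had 4.02, 1.91 and 4.13 RPKM in forebrain total RNA and 3.22, 1.49 and 3.27 in ribosome-bound RNA, and 1.07, 0.102 and 1.36 against 0.323, 0.0402 and 0.452 in kidney. C130021I20Rik had 2.61, 1.17 and 2.63 RPKM in forebrain total and 3.23, 1.81 and 3.11 in ribosome-bound RNA, but 3.21, 3.19 and 3.50 in kidney total RNA, where replicate 2 did not stand apart.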
